A study of Mus musculus with 24 samples.

Results

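The E2F transcription factors and the Rb family of pocket proteins were described in splenic monocytes of WT, Slc29a3-/- and Slc29a3-/- Tlr7-/- mice. The 10 genes were taken by symbol and not by a cut on their values from 23930 amplicons, but with earlier results of these data known. E2f1, E2f2 and E2f3 are the activator E2Fs, E2f4 and E2f5 the canonical repressors, and E2f7 and E2f8 the atypical repressors. Rb1, Rbl1 (p107) and Rbl2 (p130) are the pocket protein genes. All 10 passed the filter on low values in the main fits, while E2f5, E2f7, E2f8 and Rbl1 were filtered out of some alternative fits. In Ly6Chi monocytes, E2f1, E2f2, E2f7, E2f8 and Rbl1 were higher in Slc29a3-/- than in WT mice, and E2f1, E2f3, E2f7, E2f8 and Rbl1 were higher in Slc29a3-/- than in Slc29a3-/- Tlr7-/- mice. In Ly6Clow monocytes, E2f4 was the gene that passed the test, and it was lower in both mutants than in WT.

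E2F proteins bind the promoters of genes for DNA replication and mitosis, mostly as dimers with a DP protein. In resting cells the pocket proteins bind E2Fs and hold these promoters down, and cyclin-dependent kinases release the E2Fs by phosphorylating the pocket proteins as a cell enters S phase. E2f7 and E2f8 encode E2Fs that bind DNA without DP or pocket proteins and repress the same promoters later in the cycle, and E2f1, E2f7, E2f8 and Rbl1 are themselves known E2F targets.

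Ly6Chi monocytes are the classical, recently released monocytes and Ly6Clow monocytes the patrolling ones. Both were sorted from the spleens of untreated mice as CD11b+ Ly6G- Siglec F- NK1.1- cells, after beads had depleted T, B, NK, Ly6G+ and erythroid cells. The gate also took Ly6Chi cells as Fcgr4-low and Ly6Clow cells as Fcgr4-high. The labels call both populations macrophages. The 3 genotypes were WT, Slc29a3-/- (an insertion that disrupts the lysosomal nucleoside transporter SLC29A3) and Slc29a3-/- Tlr7-/- (which also carries a short deletion in Tlr7, the endosomal sensor of RNA and guanosine), with 4 libraries in each of the 6 groups. All mice were C57BL/6, the WT mice being purchased and the mutant alleles made by CRISPR, and the ages of the mice behind these libraries are not given in the sources used here. A Slc29a3+/+ Tlr7-/- group was not analysed here.

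Values are RPM, reads scaled to the same total in each library, from 1 short amplicon per gene, so levels were compared between samples and not between genes. The step between the lowest values corresponded to 12311085 to 14572025 reads per library, and 3 reads to 0.206 to 0.244 RPM. WT replicates 1 to 3 stood apart. In Ly6Chi they differed from each other by a mean chi-square per gene of 6.2 to 8.8, where sampling noise alone gives about 1, and so lay closer together than the mutant replicates, at 21.9 to 112.1, while WT replicate 4 differed from them by 82.4 to 86.3. In Ly6Clow they differed by 11 to 35.5, a range that overlapped that of the Slc29a3-/- replicates, 11.9 to 19.7, while WT replicate 4 differed from them by 128.7 to 157.9 and Slc29a3-/- Tlr7-/- replicates from each other by 27.4 to 196.9. The 3 libraries in each subset also shared a run of barcodes and a depth of 14237166 to 14572025 reads, against 12311085 to 13048340 in the other 18 libraries. For the genes the results turn on, differences from WT are therefore also given with WT replicate 4 as the lone WT library, which is assumed to vary like the mutants, and with WT replicates 1 to 3 averaged into 1 library. The targeted genes were read in every group: in Ly6Chi cells Slc29a3 lay at 163.2 to 224.7 RPM in WT, 126.6 to 173.5 in Slc29a3-/- and 193.7 to 413.4 in Slc29a3-/- Tlr7-/- mice, and Tlr7 at 258.6 to 344.5 RPM in the last group. Where the amplicons lie relative to the small mutations is not given, so these values did not check the genotypes, which rest on the labels. Fcgr4, on which both populations were gated, lay at 26 to 62.5 RPM in Ly6Chi and 604.8 to 3016.8 in Ly6Clow libraries. Ccr2 lay at 132.1 to 1782.5 and 1.76 to 223.4 in the same order. Of 4 tested Ly6Chi markers, 3 were higher in Ly6Chi than in Ly6Clow cells and 1 was lower in each genotype. Csf1r, from that list, had means of 831.8 RPM in Ly6Chi and 1530.4 in Ly6Clow WT libraries. Nothing in the sources says that the replicates of a group came from separate mice, so the p-values measure the spread between these samples, which may be technical.

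RefSeq promoter windows (GRCm38.p6, the mm10 build the submitters named) were matched by symbol for 7 of the 10 genes. Those of the genes that passed a test between genotypes in Ly6Chi monocytes are shown, as the 250 bases before the annotated start, read 5′ to 3′ along the gene's strand: E2f2 at chr4:136172024-136172273 (+), E2f3 at chr13:29986064-29986313 (-), E2f7 at chr10:110745189-110745438 (+), E2f8 at chr7:48881597-48881846 (-, a start inside the gene's outer limits) and Rbl1 at chr2:157204535-157204784 (-). E2f2 and E2f3 have 2 windows each, of which the outermost is shown. The E2f1 window lay within the gene's own transcript and is not shown. The genes without a window shown lie at chr2:154559400-154569892 (E2f1), chr8:105297663-105305370 (E2f4), chr3:14578602-14606309 (E2f5), chr14:73192858-73325951 (Rb1) and chr8:91070057-91123844 (Rbl2). Capitals mark the letters TTTCCCGC, TTTGGCGC, TTTCGCGC or TTTGCCGC, which E2Fs are known to bind, and TTTGAA, the core of the CHR element bound by MuvB complexes, on either strand.
E2f2: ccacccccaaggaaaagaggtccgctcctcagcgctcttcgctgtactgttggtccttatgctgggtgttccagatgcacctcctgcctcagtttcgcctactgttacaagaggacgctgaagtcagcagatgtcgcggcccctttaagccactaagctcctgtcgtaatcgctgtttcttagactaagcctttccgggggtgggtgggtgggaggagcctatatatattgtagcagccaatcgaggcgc
E2f3: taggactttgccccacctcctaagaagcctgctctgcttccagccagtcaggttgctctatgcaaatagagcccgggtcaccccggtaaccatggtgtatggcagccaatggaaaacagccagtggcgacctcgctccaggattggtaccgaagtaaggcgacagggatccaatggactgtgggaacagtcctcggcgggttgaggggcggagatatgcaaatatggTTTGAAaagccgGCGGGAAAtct
E2f7: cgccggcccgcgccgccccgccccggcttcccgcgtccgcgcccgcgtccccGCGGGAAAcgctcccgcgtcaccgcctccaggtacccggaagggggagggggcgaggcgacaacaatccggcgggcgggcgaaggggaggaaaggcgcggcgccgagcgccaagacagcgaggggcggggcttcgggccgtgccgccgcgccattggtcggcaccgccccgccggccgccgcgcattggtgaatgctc
E2f8: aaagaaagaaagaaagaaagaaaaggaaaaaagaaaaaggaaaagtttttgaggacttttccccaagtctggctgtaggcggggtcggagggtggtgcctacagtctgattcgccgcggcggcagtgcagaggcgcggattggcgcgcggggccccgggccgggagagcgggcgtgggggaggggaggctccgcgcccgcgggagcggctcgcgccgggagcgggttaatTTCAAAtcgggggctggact
Rbl1: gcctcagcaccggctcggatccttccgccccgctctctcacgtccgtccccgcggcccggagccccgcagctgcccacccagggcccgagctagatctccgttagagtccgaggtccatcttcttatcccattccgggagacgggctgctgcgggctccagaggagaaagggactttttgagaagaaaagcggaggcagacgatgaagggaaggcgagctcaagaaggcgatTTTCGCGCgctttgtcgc
The E2F letters stood 11 bases before the start of E2f3, 198 before that of E2f7 and 18 before that of Rbl1, that is, in 3 of the 7 matched genes, against 2.2% of all 27025 genes with a window. TTTGAA stood 23 bases before the start of E2f3 and, on the other strand, 20 before that of E2f8. With windows not shown it also stood in E2f2 and Rbl2, that is, in 4 of the 7 genes against 18.3% of all genes. In E2f2 it stood only in the inner window, which overlaps the gene's own exons. The letters CCAAT, not capitalised here, were held by E2f2, E2f3, E2f7 and E2f8, likewise 4 of the 7, against 37.5% of all genes. A match describes the letters of a window and is not a binding site, and the counts of 7 genes are small. The 7 include E2f1, whose window lay within its own transcript. The shares over all genes were not matched for base composition, so these counts do not show an enrichment.

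In Ly6Chi monocytes, 5 of the 10 genes were higher in Slc29a3-/- than in WT mice and 0 were lower, by limma on log2(RPM + 1) with Benjamini-Hochberg adjustment over all 10561 genes tested, at an adjusted p under 0.05 and a fold over 1.5. Of all genes tested, 8.15% were called higher. The median log2 fold change was 0.52 over the 10 genes and -0.14 over all genes. The choice of scaling moved the split of calls over all genes, from 36.4% higher to 51.0% with TMM and 49.2% with RLE scaling, while the number of called members stayed at 5 under both.

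**Figure D1:**
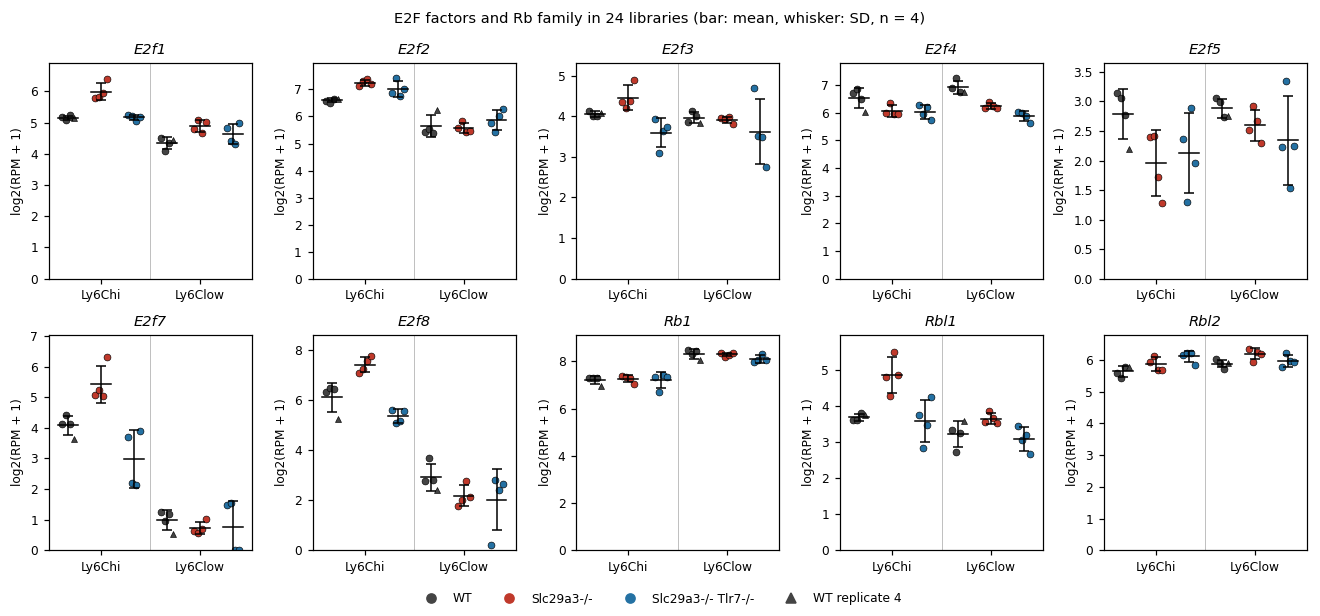
Levels of the 10 genes as log2(RPM + 1) in each of the 24 libraries, by subset and genotype, with 1 panel and 1 axis from 0 per gene (points are libraries, triangles WT replicate 4, bars the means and whiskers the SD, n = 4). In the Ly6Chi groups E2f1, E2f7, E2f8 and Rbl1 are highest in all 4 Slc29a3-/- libraries, E2f7 and E2f8 lie lower in every Ly6Clow library than in every Ly6Chi library, and Rb1 lies higher in Ly6Clow than in Ly6Chi cells.

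E2f8, an atypical E2F that represses replication genes, was the member called with either choice of WT libraries. It lay at 79.2, 87.9, 85.4 and 37 RPM in WT, at 134.2, 151.3, 186.4 and 214.4 in Slc29a3-/- and at 48.4, 33.3, 35 and 46.4 in Slc29a3-/- Tlr7-/- Ly6Chi monocytes. All 4 Slc29a3-/- libraries lay above all others, and WT replicate 4 fell within the range of the Slc29a3-/- Tlr7-/- libraries. The log2 fold change of Slc29a3-/- over WT was 1.29 ± 0.25 (SE), a 2.44-fold difference with an adjusted p of 0.0022 (limma). With WT replicate 4 alone it was 2.16 (adjusted p = 0.023), and with WT replicates 1 to 3 averaged 1.58 (adjusted p = 0.011).

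E2f7, the other atypical E2F, lay at 16.3, 20.3, 16.5 and 11.5 RPM in WT, 32.7, 36.5, 32 and 78.7 in Slc29a3-/- and 11.9, 3.57, 3.41 and 13.8 in Slc29a3-/- Tlr7-/- Ly6Chi monocytes. The Slc29a3-/- libraries were again above all others, with replicate 4 far above the other 3. The log2 fold change over WT was 1.34 ± 0.40 (adjusted p = 0.021, limma). It rested on that replicate and on the WT libraries: without Slc29a3-/- replicate 4 it was 1.04 (adjusted p = 0.075), with WT replicate 4 alone 1.77 (adjusted p = 0.22), and with WT replicates 1 to 3 averaged 1.48 (adjusted p = 0.094).

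Among the activators, E2f1, which drives S-phase entry, lay at 35.2, 32.9, 36.5 and 34.5 RPM in WT, 54.6, 56.1, 60.9 and 83.5 in Slc29a3-/- and 37, 36, 32.4 and 35.6 in Slc29a3-/- Tlr7-/- Ly6Chi monocytes. WT and Slc29a3-/- Tlr7-/- libraries shared 1 narrow range, below every Slc29a3-/- library. The log2 fold change over WT was 0.84 ± 0.15 (adjusted p = 0.0012, limma), 0.85 (adjusted p = 0.14) with WT replicate 4 alone and 0.84 (adjusted p = 0.026) with the others averaged. E2f2 lay at 95.2, 89.6, 99.2 and 100.5 RPM in WT, 137.2, 156.9, 165.4 and 145.7 in Slc29a3-/- and 116.8, 169.9, 106.4 and 128.9 in Slc29a3-/- Tlr7-/- Ly6Chi monocytes. Both mutants lay above WT and overlapped each other. The log2 fold change of E2f2 in Slc29a3-/- over WT was 0.65 ± 0.14 (adjusted p = 0.0043, limma), and it missed the threshold with WT replicate 4 alone (0.58, adjusted p = 0.29) and with the others averaged (0.62, adjusted p = 0.064). E2f3 lay at 16.6, 15, 15.1 and 15.8 RPM in WT, 19.3, 17.3, 19.7 and 28.9 in Slc29a3-/- and 14.2, 7.47, 11.4 and 12.4 in Slc29a3-/- Tlr7-/- Ly6Chi monocytes. These 3 groups did not overlap, but the difference of Slc29a3-/- from WT, 0.40 ± 0.21 on the log2 scale, did not pass (adjusted p = 0.17, limma), nor did it with WT replicate 4 alone (0.39, adjusted p = 0.65).

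Of the pocket proteins, Rbl1, the family member known to be made as cells cycle, lay at 11.3, 11.3, 13.1 and 12.5 RPM in WT, 27.1, 18.5, 44.6 and 28.5 in Slc29a3-/- and 12.6, 6.25, 10.2 and 18.1 in Slc29a3-/- Tlr7-/- Ly6Chi monocytes. The Slc29a3-/- libraries lay above all others and spread widely, with replicate 3 highest. The log2 fold change over WT was 1.17 ± 0.28 (adjusted p = 0.0078, limma), a 2.25-fold difference that missed the threshold with WT replicate 4 alone (1.12, adjusted p = 0.3) and with the others averaged (1.15, adjusted p = 0.078). Rb1, the retinoblastoma gene itself, did not pass the test (log2 difference 0.07, 95% interval -0.28 to 0.41), and neither did Rbl2, the pocket protein of resting cells (0.22, 95% interval -0.09 to 0.54). The within-library log2 ratio of Rbl1 to Rbl2 had a mean of -2.01 ± 0.09 (SD, n = 4) in WT, -1.01 ± 0.72 in Slc29a3-/- and -2.63 ± 0.80 in Slc29a3-/- Tlr7-/- mice. It ran from -1.90 to -0.16 in Slc29a3-/- libraries and so touched the WT range of -2.09 to -1.89.

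The canonical repressors did not pass the test. E2f4, the main E2F of resting cells, lay at 104.6, 114.3, 88.9 and 64.1 RPM in WT and 62.5, 81.4, 60.7 and 61.2 in Slc29a3-/- Ly6Chi monocytes, a log2 difference of -0.46 ± 0.19 (adjusted p = 0.08, limma). WT replicate 4 fell among the Slc29a3-/- libraries, and without it the difference was -0.62 (adjusted p = 0.013), with it as the lone WT library 0.04 (adjusted p = 0.96), and with the others averaged -0.30 (adjusted p = 0.46). E2f5, which pairs with Rbl2, lay at 3.59 to 7.84 RPM in WT and 1.43 to 4.35 in Slc29a3-/- libraries, a log2 difference of -0.83 ± 0.36 (adjusted p = 0.095), and passed without WT replicate 4 (-1.03, adjusted p = 0.05 as rounded). With WT replicate 4 alone E2f5 was at -0.24 (adjusted p = 0.87), and with the others averaged at -0.64 (adjusted p = 0.42).

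Between Slc29a3-/- and Slc29a3-/- Tlr7-/- Ly6Chi monocytes, 5 of the 10 genes were higher in Slc29a3-/- and 0 were lower. WT libraries do not enter these log2 differences, but they were in the same fit and so in its SE and p-values. A fit of only the 2 groups compared, without WT libraries, also gave 5 genes higher and 0 lower. In the main fit 9.00% of all genes were called higher. The median was 0.52 over the members and -0.12 over all genes. Of all calls 52.3% were higher, against 66.5% with TMM and 64.2% with RLE scaling. The 5 genes E2f1, E2f3, E2f7, E2f8 and Rbl1 were also those whose libraries did not overlap between these groups. This describes the same values as the test, and the share of all genes without overlap was not counted.

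**Figure D2:**
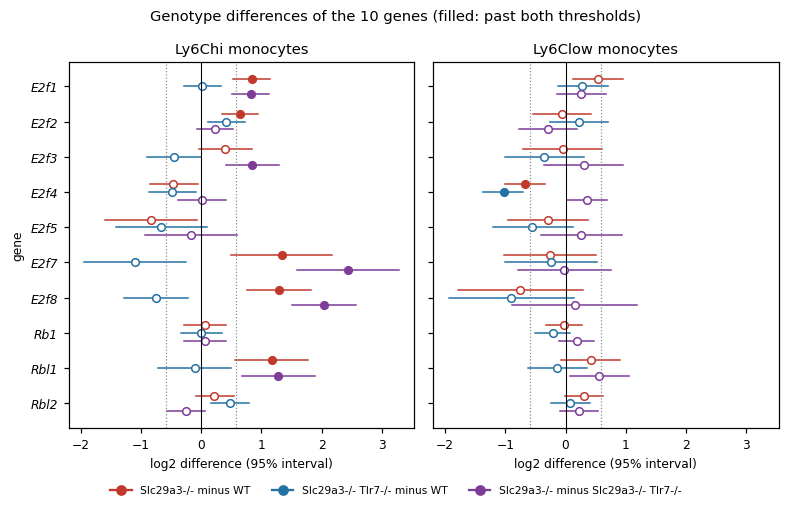
Log2 difference on the log2(RPM + 1) scale (horizontal) with its 95% interval for the 10 genes in the 3 genotype comparisons of each subset (4 libraries per group, limma), with filled points for genes that passed the test and dotted lines at the 1.5-fold limit. In Ly6Chi monocytes 5 genes are filled above 0 in both comparisons of Slc29a3-/-, and in Ly6Clow monocytes E2f4 is the filled point, below 0 in both comparisons with WT.

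The atypical E2Fs had the largest of these differences. E2f7 was 5.42-fold higher (log2 2.44 ± 0.40, adjusted p = 0.00076) and E2f8 4.12-fold higher (2.04 ± 0.25, adjusted p = 0.00014, limma). Rbl1 (1.28 ± 0.28, adjusted p = 0.0059), E2f3 (0.85 ± 0.21, adjusted p = 0.01) and E2f1 (0.82 ± 0.15, adjusted p = 0.0014) were higher by smaller amounts. E2f2 (0.23, 95% interval -0.07 to 0.53), E2f4 (0.02, -0.38 to 0.42), Rb1 (0.07, -0.28 to 0.41) and Rbl2 (-0.25, -0.57 to 0.07) did not pass. The count of 5 genes was the same under every alternative run, with any 1 library left out included.

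Slc29a3-/- Tlr7-/- and WT Ly6Chi monocytes share the samples of the comparisons above. Here 0 of the 10 genes passed the adjusted test (limma), where 1.42% of all genes did, and 2 passed at an unadjusted p under 0.05 with the same fold, against 12.6% of all genes. Those 2 were E2f7, with a log2 difference of -1.10 ± 0.40 (adjusted p = 0.13), and E2f8, with -0.75 ± 0.25 (adjusted p = 0.1). Without WT replicate 4, E2f8 (-1.04, adjusted p = 0.003) and E2f4 (-0.64, adjusted p = 0.026) passed. With WT replicate 4 as the lone WT library, E2f8 was at 0.12, E2f4 at 0.02 and E2f7 at -0.67 (adjusted p = 1 for each), and with the others averaged E2f8 was at -0.46 (adjusted p = 0.74) and E2f7 at -0.96 (adjusted p = 0.73). E2f2 (0.42, adjusted p = 0.11) and Rbl2 (0.47, adjusted p = 0.092) lay above WT in all 4 libraries and E2f3 (-0.45, adjusted p = 0.21) below, without passing. E2f1 differed by 0.02, with a 95% interval of -0.29 to 0.33.

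Markers of other cells moved with these results. The summed level of 10 neutrophil markers, all read in every Ly6Chi group, was 14358.6 to 21998.9 RPM in WT, 43544.5 to 83200.4 in Slc29a3-/- and 6745.6 to 22144.8 in Slc29a3-/- Tlr7-/- Ly6Chi monocytes, although the gate and the beads remove Ly6G+ cells. Of these 10, 6 were higher and 2 lower in Slc29a3-/- than in WT, where 22.4% of all genes were called in either direction. Their median log2 difference was 1.44. On the higher side were Ltf (1.78), Camp (1.87) and Ly6g (1.63), so the sum does not describe every marker. The sum of 7 markers of granulocyte-monocyte progenitors, none at 0, was 351.8 to 456.4 RPM in WT, 867.9 to 2900.6 in Slc29a3-/- and 367.5 to 945.7 in Slc29a3-/- Tlr7-/- libraries, and 5 of the 7 were higher in Slc29a3-/- than in WT, Elane by 2.31 and Mpo by 2.12. E2f7, E2f8 and the neutrophil sum were each lowest in replicate 4 among WT libraries and highest in replicate 4 among Slc29a3-/- libraries. Each was also higher in replicates 1 and 4 than in 2 and 3 of Slc29a3-/- Tlr7-/- mice. Rbl1 was highest in Slc29a3-/- replicate 3, the library with the highest progenitor sum, whereas E2f1 and E2f8 were highest in replicate 4. Sums of markers of conventional dendritic cells were lower in Slc29a3-/- (15.1 to 36.8 RPM) than in WT (75.7 to 102.5), as were those of NK cells (8.18 to 20.6 against 51.1 to 265.9) and T cells (4.92 to 14.9 against 26.4 to 164.7). The part of these cells in the E2F and Rb results was not tested, and in these bulk libraries fewer cells of a type and less RNA per cell cannot be told apart.

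**Figure D3:**
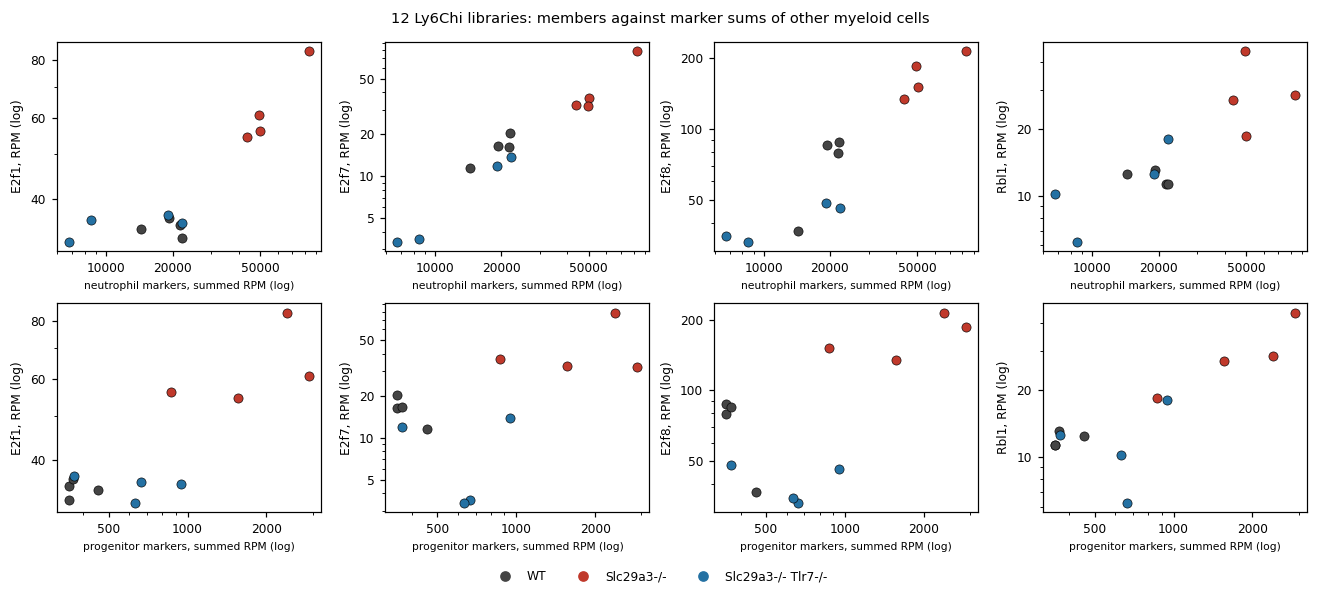
RPM of E2f1, E2f7, E2f8 and Rbl1 (vertical, log axis) against the summed RPM of neutrophil (upper) or progenitor markers (lower, horizontal, log axes) in the 12 Ly6Chi libraries, coloured by genotype. The Slc29a3-/- libraries have the highest levels of all 4 genes and the highest neutrophil sums, while their progenitor sums overlap those of Slc29a3-/- Tlr7-/- libraries.

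Most of the other cell cycle genes tested were also higher in Slc29a3-/- Ly6Chi monocytes; values are log2 differences. Of 3 genes for the DP partners and E2f6, 2 were higher in Slc29a3-/- than in WT: Tfdp1, the main DP partner (1.04, 2.06-fold), and E2f6, an E2F that represses without pocket proteins (0.69), while Tfdp2 (0.09) did not pass. Of 6 tested genes for MuvB subunits, B-Myb and FoxM1, 4 were higher, among them Mybl2 (1.48) and Foxm1 (1.26), which activate mitotic genes together with MuvB, and Lin54, its DNA-binding subunit (0.45), did not pass. Of 26 tested E2F targets of S phase, 22 were higher and 0 lower with a median of 1.22, including Rrm2, a subunit of ribonucleotide reductase (1.23), Cdc6, which licenses origins (1.62), and Ccna2, cyclin A (1.00). Of 13 genes of G2 and M, 12 were higher with a median of 1.26, including Plk1 (0.96) and Aurkb (1.35), both mitotic kinases. Over all genes 22.4% were called in either direction with a median of -0.14. E2f6 missed the threshold without a filter on low values (0.69, adjusted p = 0.1) and with WT replicates 1 to 3 averaged (0.70, adjusted p = 0.18, limma). So did Plk1, at 0.96 (adjusted p = 0.075) and 1.20 (adjusted p = 0.077) in the same order. With WT replicate 4 as the lone WT library, 0, 1, 9 and 9 genes of these 4 lists were higher.

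**Figure D4:**
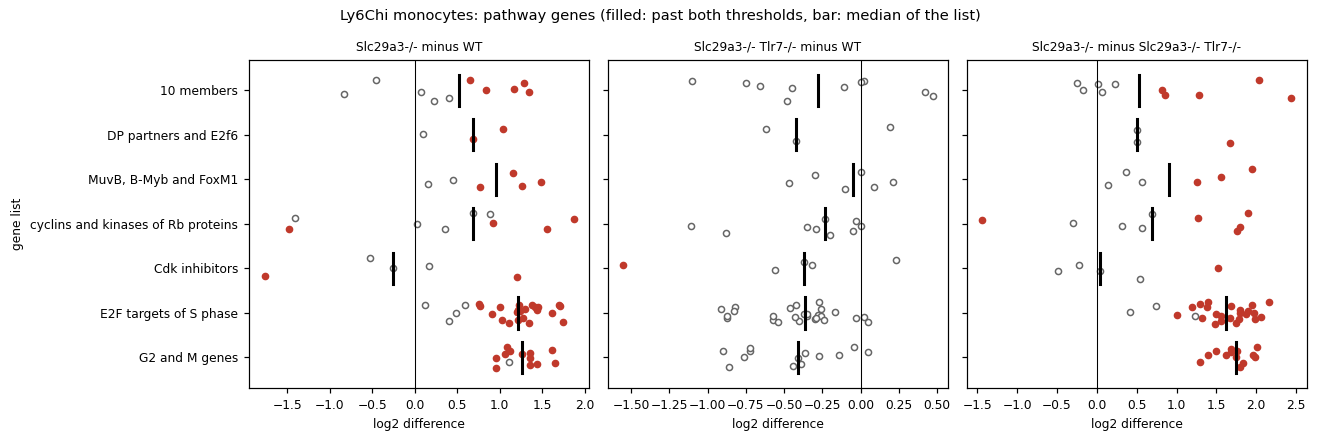
Log2 differences (horizontal) of the 10 members and of the genes of 6 pathway lists in the 3 genotype comparisons of Ly6Chi monocytes, 1 panel each with its own axis (points are genes, filled where they passed the test, and bars are list medians). The S-phase and G2 and M lists lie above 0 in both comparisons of Slc29a3-/-, with medians of 1.22 to 1.75, and have medians of -0.36 and -0.41 with no filled point in Slc29a3-/- Tlr7-/- against WT.

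Genes that set the phosphorylation of pocket proteins moved both ways. Of 9 genes for cyclins, their kinases and the phosphatase Cdc25a, 3 were higher in Slc29a3-/- than in WT. They were Ccne2, cyclin E2 (1.87), its kinase Cdk2 (0.92) and Cdc25a. Ccnd1, cyclin D1, was lower (-1.48). Over all genes 22.4% were called in either direction. Cdk2 missed the threshold with WT replicates 1 to 3 averaged (0.96, adjusted p = 0.058, limma). Ccnd2 (-1.41, adjusted p = 0.053) missed the threshold but passed with the replicate number as a block (adjusted p = 0.024) and in a fit of the 2 groups (adjusted p = 0.01). Ccnd3 (0.36), Cdk4 (0.02) and Cdk6 (0.69) did not pass. Of 5 tested Cdk inhibitors, Cdkn2c, which binds Cdk4 and Cdk6, was higher (1.20) and Cdkn1a (p21) lower (-1.77). Cdkn1a was at -0.47 (adjusted p = 0.59) with WT replicate 4 alone and at -1.34 (adjusted p = 0.066) with the others averaged, and Ccnd1 at -1.04 (adjusted p = 0.27) with WT replicate 4 alone.

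Against Slc29a3-/- Tlr7-/- mice the same lists gave 1 of 3, 3 of 6, 23 of 26 and 13 of 13 genes higher in Slc29a3-/- Ly6Chi monocytes for the DP, MuvB, S-phase and G2 and M lists, with 17.2% of all genes called. Medians were 0.50, 0.91, 1.62 and 1.75 against -0.12 over all genes. Tfdp1 (1.67), Mybl2 (1.95), Foxm1 (1.56), Rrm2 (2.06), Cdc6 (1.90), Ccna2 (1.87), Plk1 (1.68) and Aurkb (1.30) all passed. Of the 9 genes for cyclins, kinases and Cdc25a, 4 were higher, among them Ccne1 (1.76), Ccne2 (1.90) and Cdk2 (1.27), and Ccnd1 was lower (-1.44). Of the Cdk inhibitors Cdkn2c was higher (1.52). Between Slc29a3-/- Tlr7-/- and WT mice, Cdkn1a was the single gene of the 6 lists that passed (-1.55, adjusted p = 0.047), and it missed the threshold under 10 alternatives and without any 1 of WT replicates 1, 2 and 3 or Slc29a3-/- Tlr7-/- replicates 2, 3 and 4. Without WT replicate 4, 4 S-phase and 5 G2 and M genes were called lower. Without Slc29a3-/- Tlr7-/- replicate 1, so were 3 G2 and M genes, 1 gene of the DP list and 1 of the cyclins, kinases and Cdc25a.

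In Ly6Clow monocytes, E2f4 was the 1 of 10 genes that was lower in Slc29a3-/- than in WT mice, where 2.53% of all 10317 genes tested were called lower. It lay at 118.1, 154.0, 108.1 and 105.5 RPM in WT, 70.8, 83.8, 75.5 and 70.3 in Slc29a3-/- and 64.9, 63.2, 57.4 and 48.6 in Slc29a3-/- Tlr7-/- Ly6Clow monocytes. Every mutant library lay below every WT library, and the mutants did not overlap each other. The log2 difference of Slc29a3-/- from WT was -0.67 ± 0.16 (adjusted p = 0.025, limma), and it missed the threshold when any 1 of 7 of the 8 libraries was left out (adjusted p = 0.052 to 0.092), with WT replicate 4 alone (-0.49, adjusted p = 0.58) and with the others averaged (-0.62, adjusted p = 0.22).

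E2f4 was also the 1 gene lower in Slc29a3-/- Tlr7-/- than in WT Ly6Clow monocytes, where 6.03% of all genes were called lower. The log2 difference was -1.03 ± 0.16 (2.05-fold lower, adjusted p = 0.0045, limma), and -0.85 (adjusted p = 0.39) with WT replicate 4 alone or -0.98 (adjusted p = 0.1) with the others averaged. Without Slc29a3-/- Tlr7-/- replicate 1, E2f3 also passed (-0.71, adjusted p = 0.048), and without replicate 2 E2f5 did (-0.88, adjusted p = 0.036). Over all genes the split of calls in this comparison moved from 27.4% higher to 38% with TMM and 49.1% with RLE scaling. Both comparisons use the same WT libraries.

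The members raised in Slc29a3-/- Ly6Chi cells did not pass in Ly6Clow cells. E2f1 lay at 21.7, 15.9, 19.5 and 20.8 RPM in WT, 26.6, 32.9, 24.5 and 31.5 in Slc29a3-/- and 27.5, 20.2, 18.9 and 30.4 in Slc29a3-/- Tlr7-/- Ly6Clow monocytes. All Slc29a3-/- libraries lay above WT, with a log2 difference of 0.54 ± 0.19 (adjusted p = 0.12, limma), or 0.45 (adjusted p = 0.77) with WT replicate 4 alone. E2f7 did not exceed 1.91 RPM in any Ly6Clow library and was at 0 in replicates 3 and 4 of Slc29a3-/- Tlr7-/- mice, and E2f8 did not exceed 11.8. Rbl1 lay at 5.7 to 11 RPM in WT and 10.6 to 13.7 in Slc29a3-/- mice, ranges that overlapped (0.42, 95% interval -0.07 to 0.91). Between Slc29a3-/- and Slc29a3-/- Tlr7-/- Ly6Clow monocytes 0 of the 10 genes passed, by the adjusted test (1.93% of all genes) or at an unadjusted p under 0.05 (13.7% of all genes, limma with the same fold). Neutrophil markers summed to 47.7 to 1390.9 RPM in WT, 25.8 to 108.3 in Slc29a3-/- and 11 to 54.9 in Slc29a3-/- Tlr7-/- Ly6Clow libraries, with Ly6g at 0 in the last group. Erythroid markers summed to 55.5 to 129.8, 144.6 to 191.4 and 19.3 to 81.2 RPM, and the part of either in the E2f4 result was not tested.

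In the pathway lists of Ly6Clow monocytes, Cdkn1a was the single gene called between Slc29a3-/- and WT, lower in Slc29a3-/-, and it was at -0.34 (adjusted p = 0.8) with WT replicate 4 alone. Between Slc29a3-/- Tlr7-/- and WT mice 4 of 5 Cdk inhibitors were lower, where 6.03% of all genes were called lower. Among them were Cdkn1a (log2 difference -1.65), Cdkn1b, the gene for p27 (-1.42), and Cdkn2d (-0.80). The list median was -0.92, against -0.10 over all genes. The count of inhibitors called ran from 1 to 4 with 1 library left out and was 1 without WT replicate 1, 2 or 3. Tfdp1 (-0.82), Ccna2 (-1.45) and Plk1 (-1.53) were lower and Lin54 (0.71) higher in the same comparison. Each of these named calls was lost with WT replicate 4 alone, with the others averaged, and in a fit of the 2 groups.

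Of the 10 genes, 5 differed between Ly6Chi and Ly6Clow monocytes of WT mice, 6 in Slc29a3-/- and 4 in Slc29a3-/- Tlr7-/- mice, by limma over 11042 genes. Of these genes 17.5%, 16.5% and 18.7% were called higher and 8.46%, 18.5% and 9.64% lower, against 4, 5 and 3 members higher and 1 member lower in each genotype. E2f2, E2f7 and E2f8 were higher in Ly6Chi and Rb1 was lower in all 3 genotypes, and in each of these the libraries of the subsets did not overlap. E2f3, E2f4, E2f5 and Rbl2 passed in no genotype. E2f8 was higher by 3.20 ± 0.41 in WT, 5.23 ± 0.41 in Slc29a3-/- and 3.34 ± 0.41 in Slc29a3-/- Tlr7-/- mice as log2(RPM + 1), a scale that compresses the change of a gene near 0. E2f7 was higher by 3.09, 4.68 and 2.22 and E2f2 by 0.96, 1.66 and 1.14 in the same order. Of the pathway lists, all 13 genes of G2 and M were higher in Ly6Chi cells of each genotype (medians 3.04, 4.52 and 3.21), as were 20, 24 and 15 of 26 S-phase targets (medians 1.01, 2.58 and 0.77).

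**Figure D5:**
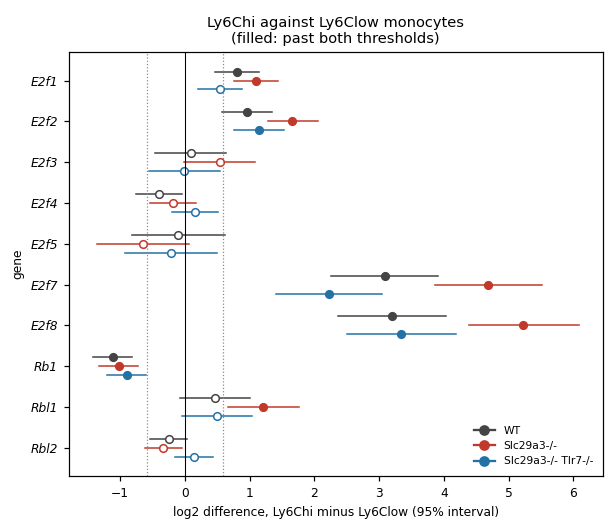
Log2 difference of Ly6Chi from Ly6Clow monocytes (horizontal) with its 95% interval for the 10 genes in each genotype (4 libraries per group, limma), with filled points for genes that passed the test. E2f7 and E2f8 lie farthest above 0, most of all in Slc29a3-/- mice, and Rb1 lies about 1 below 0 in each genotype.

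Rb1, which restrains E2F activators, lay at 103.9 to 171.8 RPM in the 12 Ly6Chi and 247.8 to 357.0 in the 12 Ly6Clow libraries. Its log2 difference of Ly6Chi from Ly6Clow cells was -1.11 in WT, -1.02 in Slc29a3-/- and -0.90 in Slc29a3-/- Tlr7-/- mice (SE 0.15 in each), and the first 2 of these differed from each other by 0.09 (95% interval -0.33 to 0.52). E2f1 was higher in Ly6Chi cells by 0.81 in WT and 1.10 in Slc29a3-/- mice, and at 0.55 (adjusted p = 0.012) in Slc29a3-/- Tlr7-/- mice it stayed under the fold of 1.5. It passed there without Ly6Chi replicate 3 (0.59), Ly6Clow replicate 1 (0.62) or Ly6Clow replicate 4 (0.66). Rbl1 passed in Slc29a3-/- mice (1.21 ± 0.26). With WT replicate 4 alone, E2f7 (3.10, adjusted p = 0.05 as rounded) and Rb1 (-1.09, adjusted p = 0.038) kept their calls between the WT subsets, and E2f8 (2.82, adjusted p = 0.055), E2f1 (0.70, adjusted p = 0.34) and E2f2 (0.42, adjusted p = 0.65) did not. E2f2 in WT Ly6Clow monocytes lay at 42.3, 44.9 and 40.4 RPM in replicates 1 to 3 and 75.0 in replicate 4.

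An interaction term, fitted to all 24 libraries, asked whether a genotype had a different effect in each subset. The difference of Slc29a3-/- from WT was larger in Ly6Chi than in Ly6Clow monocytes for 1 of the 10 genes, E2f8 (2.03 ± 0.58, adjusted p = 0.027, limma), where 4.11% of all genes were called higher. It missed the threshold when any 1 of 6 libraries was left out, among them Ly6Chi WT replicate 4 (1.74, adjusted p = 0.059) and Ly6Clow WT replicate 2 (1.78, adjusted p = 0.07), with WT replicate 4 alone (2.41, adjusted p = 0.33) and with the others averaged (2.19, adjusted p = 0.14). E2f7 (1.60, adjusted p = 0.082), E2f2 (0.71, adjusted p = 0.1) and Rbl1 (0.75, adjusted p = 0.24) did not pass, although E2f2 did with TMM (0.88, adjusted p = 0.027) and RLE scaling. The difference of Slc29a3-/- from Slc29a3-/- Tlr7-/- was larger in Ly6Chi cells for E2f7 (2.46 ± 0.57, adjusted p = 0.0079) and E2f8 (1.89 ± 0.58, adjusted p = 0.041), where 4.53% of all genes were called higher. The E2f8 value missed the threshold when any 1 of 10 libraries was left out (1.63 to 1.87, adjusted p = 0.058 to 0.097), and that of E2f7 passed with any 1 library left out but not with a pseudocount of 0.1 (1.85, adjusted p = 0.29). Of the pathway lists, 14 of 26 S-phase targets and 9 of 13 genes of G2 and M passed higher in the first interaction (8.76% of all genes in either direction) and 15 and 8 in the second (8.94%). Over all genes, scaling moved the share of higher calls from 46.9% to 63.1% (TMM) and 62.4% (RLE) in the first interaction and from 50.7% to 70.6% and 71.7% in the second.

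The genes whose log2 levels were most like those of each member over the 24 libraries were taken as a description, since all libraries share the 6 groups. For E2f8 they were Birc5, Spc24 and Ccna2 (Pearson's r of 0.988, 0.985 and 0.983), genes of chromosome segregation and the cell cycle, and for E2f7 they were Esco2, Kifc1 and Cldn1 (0.978, 0.973 and 0.973). E2f2 was closest to Pgd, Lpgat1 and Gsn (0.965, 0.964 and 0.961) and E2f1 to Entpd5, Hist1h1d and Ifnlr1 (0.944, 0.941 and 0.939). Rb1 was closest to Tcf7l2, Gm16120 and Eno3 (0.961, 0.961 and 0.960). Rbl1 had Ndc1 at 0.925, E2f4 had Aamp at 0.908, E2f3 had Ssna1 at 0.889, E2f5 had Gfi1b at 0.813 and Rbl2 had Tmem168 at 0.778 as the closest gene. Among the members themselves, E2f7 and E2f8 were closest to each other (0.92), and Rb1 ran against E2f2 (-0.90) and E2f8 (-0.81).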

How the data were processed

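RNA of sorted Ly6Chi and Ly6Clow splenic monocytes was measured in 24 libraries made with an Ion AmpliSeq mouse transcriptome kit, which reads 1 amplicon per gene. The authors deposited 1 table of RPM for all libraries. The study's methods name Cutadapt, STAR with mm10, HTSeq and DESeq2, but which step wrote the table is not given in the sources used here. The RPM totals were 999999.4 to 1000001.0 per library, and the smallest RPM steps gave 12311085 to 14572025 reads, so 3 reads correspond to 0.206 to 0.244 RPM. Values of 0.0001 mark 0 and were set to 0, and 27 symbols that a spreadsheet had turned into dates were repaired. Precision of single values is limited by counting error and by 4 libraries per group.

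Columns were assigned by the barcode names in the labels. Amplicons with at least 1 RPM in 4 libraries were tested with limma 3.58.1 (R 4.3.3, intensity trend) on log2(RPM + 1), fitted over the 12 libraries of a subset for genotypes and over all 24 for subsets and interactions. Adjusted p-values are Benjamini-Hochberg over all genes tested, and a call needed an adjusted p under 0.05 and a fold over 1.5. The step was tested on simulated data. Per-library values, ratios and figures used Python 3.11.15, pandas 2.3.3, numpy 2.4.6 and matplotlib 3.10.9. Alternatives were TMM and RLE scaling, other filters, a pseudocount of 0.1, other sets of libraries in the fit, a replicate block, WT replicate 4 alone and each library left out. WT replicates 1 to 3 averaged and limma without the trend were added after seeing the data. Same-numbered WT libraries deviated together across the subsets in 4 of 4 pairs (correlations of 0.26 to 0.62), a pairing taken from the data, and the block changed no member call there. The genes, pathway lists and marker lists were chosen with earlier results of these data known, and the lists support no result by themselves. The genes named are the 10 members, a fixed set of pathway genes and the 3 genes most correlated with each member. Lin52, Pcna and Ccnb1 were not analysed here.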

Additional observations from a re-analysis of the deposited data

Results flagged for a closer look

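In 5 of the 60 sets of 4 libraries (10 genes in 6 groups) 1 library lay apart from the other 3 by Dixon's test at the 95% level, which chance alone gives in about 5% of sets. E2f7 was highest in replicate 4 of Slc29a3-/- Ly6Chi monocytes at 78.7 RPM, and its difference from WT missed the threshold without that library. E2f2 was highest in replicate 4 of WT Ly6Clow monocytes at 75.0 RPM, and E2f4 in replicate 2 of Slc29a3-/- Ly6Chi monocytes at 81.4 RPM. Rb1 was lowest in replicate 4 of WT Ly6Chi monocytes at 123.1 RPM and in replicate 2 of Slc29a3-/- Tlr7-/- Ly6Chi monocytes at 103.9 RPM. Of the 5 libraries, 2 are WT replicate 4, which differed from the other WT libraries over all genes.

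In tests of the interaction over 24 libraries, E2f8 passed at 2.03 on the log2 scale for Slc29a3-/- against WT. It passed at 1.89 for Slc29a3-/- against Slc29a3-/- Tlr7-/-, and E2f7 passed at 2.46 for the latter. With a pseudocount of 0.1 these calls were lost. The adjusted p was then 0.15 for E2f8 against WT, and 0.29 for E2f8 and for E2f7 against Slc29a3-/- Tlr7-/- (limma). The E2f8 calls were also lost when some of the libraries were left out in turn. In Ly6Clow monocytes E2f7 did not exceed 1.91 RPM and E2f8 did not exceed 11.8 RPM. The log2 scale used compresses changes at such low levels, and its part in these differences was not tested.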

How the results depend on the processing

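The 5 genes called between Slc29a3-/- and Slc29a3-/- Tlr7-/- Ly6Chi monocytes numbered 5 under every alternative. Counts that used WT moved most: with WT replicate 4 alone, 1 gene was called in Ly6Chi Slc29a3-/- against WT, 0 in Ly6Clow Slc29a3-/- and 0 in Ly6Clow Slc29a3-/- Tlr7-/- against WT, 2 between the WT subsets and 0 in the interaction of Slc29a3-/- with WT. With WT replicates 1 to 3 averaged, an alternative added after seeing the data, these were 2, 0, 0 and, for the interaction, 0. These fits hold fewer WT libraries, so a lost call there does not show that values were alike. At an unadjusted p under 0.05, 2 genes passed in Ly6Chi Slc29a3-/- Tlr7-/- against WT and 3 in the interaction with WT. That interaction gave 2 genes with TMM, 2 with RLE, 0 without a filter on low values and 0 with a pseudocount of 0.1, and the interaction with Slc29a3-/- Tlr7-/- gave 1 and 0 under the last 2, for which the cause was not tested. With each library left out, counts ran from 4 to 7 (Ly6Chi Slc29a3-/- against WT), 0 to 2 (Slc29a3-/- Tlr7-/- against WT) and 5 to 5 (between mutants), in Ly6Clow from 0 to 1, 1 to 2 and 0 to 0, between subsets 5 to 5 (WT), 6 to 6 (Slc29a3-/-) and 4 to 5 (Slc29a3-/- Tlr7-/-), and in the interactions 0 to 1 (WT) and 1 to 2. Of 2026 member values under alternatives, 47 lost a call, 13 gained one and 0 reversed, and 57 changed sign without a call on either side, the largest from -0.75 to 0.12 (E2f8, Ly6Chi Slc29a3-/- Tlr7-/- against WT, with WT replicate 4 alone). Across genotypes, 3 of 12 same-numbered pairs in Ly6Chi and 1 of 12 in Ly6Clow had a correlation over 0.1, all between the mutants (0.13 to 0.16). Correlations of so few libraries cannot show that a pairing is absent. Across subsets, 4 of 4 pairs had one over 0.1 in WT (0.26 to 0.62), 3 of 4 in Slc29a3-/- and 1 of 4 in Slc29a3-/- Tlr7-/- mice. A replicate block left the counts at 5, 0, 5, 1, 1 and 0 in the 6 genotype comparisons, 5, 6 and 4 between subsets, and 1 and 2 in the interactions. Count tests (edgeR, DESeq2) were not run, since the table holds RPM. Depth limits E2f7 and E2f8 in Ly6Clow cells, where 3 reads are 0.206 to 0.244 RPM.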
